A study of Homo sapiens with 9 samples.

Results

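Collagen chains of A549 cells were followed through depletion of the long noncoding RNA LITATS1. The set holds 10 named collagen genes, COL1A1, COL4A1, COL4A2, COL4A3, COL4A4, COL5A1, COL6A1, COL12A1, COL13A1 and COL17A1, out of 60676 genes in the table of fragments per gene. They were picked by name, with earlier results of these data known. They make up 10 of the 44 human collagen chain genes in the table, which leaves 34 others. A549 is an established human lung adenocarcinoma line with epithelial morphology. The cells received lentivirus overnight, grew for 2 days, and then spent 3 days in 1 ng/mL puromycin before RNA was taken; all of them were kept in DMEM with 10% fetal bovine serum. There were 3 groups of 3 libraries: cells carrying the shRNA shLITATS1-1, cells carrying a separate shRNA against the same transcript, shLITATS1-2, and cells carrying a non-targeting shRNA, shNT. The submitters call the 3 libraries of a group biological replicates. Every result here therefore comes from 1 cell line selected with puromycin, and both hairpins were set against the same 3 shNT libraries.

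Collagens are built from 3 polypeptide chains that wind into a triple helix. Fibrillar chains such as COL1A1 and COL5A1 assemble into the fibrils of interstitial matrix, type IV chains form the sheet-like network of basement membranes on which lung epithelium sits, and transmembrane collagens such as COL13A1 and COL17A1 tie the cell surface to that matrix. Type IV chains pair in set combinations: COL4A1 with COL4A2 in most basement membranes, and COL4A3 and COL4A4 with COL4A5 in the basement membranes of the glomerulus and the alveolus.

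Both type IV gene pairs lie head to head, on opposite strands, with their start sites in 1 shared stretch of DNA, so those stretches are shown here beside the results on the pairs. In RefSeq (GRCh38.p14), the COL4A1 and COL4A2 start sites are 127 bases apart on chromosome 13, and the COL4A3 and COL4A4 start sites are 419 bases apart on chromosome 2. The first window below, chr13:110307034-110307333 on the plus strand, runs from 250 bases before the COL4A2 start to 50 bases into the transcript, and it also holds the COL4A1 start. The other windows are chr2:227164374-227164673 on the plus strand for COL4A3 and chr2:227164156-227164455 on the minus strand for COL4A4. Capitals mark matches, on either strand, to GGCGC (a GC-rich SMAD site), GGGCGG (Sp1), CCAAT (NF-Y) or CACCTG (an E-box read by SNAI and ZEB factors); matches may share letters.
COL4A2: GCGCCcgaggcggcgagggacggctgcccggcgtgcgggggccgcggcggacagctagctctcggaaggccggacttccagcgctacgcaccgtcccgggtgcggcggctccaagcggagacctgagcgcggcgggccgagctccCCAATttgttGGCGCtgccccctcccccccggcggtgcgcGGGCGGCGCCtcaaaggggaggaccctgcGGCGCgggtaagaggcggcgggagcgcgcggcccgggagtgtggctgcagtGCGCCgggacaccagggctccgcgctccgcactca
COL4A3: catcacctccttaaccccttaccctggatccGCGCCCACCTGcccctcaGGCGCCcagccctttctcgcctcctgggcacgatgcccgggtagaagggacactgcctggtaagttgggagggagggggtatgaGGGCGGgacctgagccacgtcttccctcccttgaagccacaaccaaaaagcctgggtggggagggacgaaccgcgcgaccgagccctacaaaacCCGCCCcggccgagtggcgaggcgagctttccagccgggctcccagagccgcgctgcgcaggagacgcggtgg
COL4A4: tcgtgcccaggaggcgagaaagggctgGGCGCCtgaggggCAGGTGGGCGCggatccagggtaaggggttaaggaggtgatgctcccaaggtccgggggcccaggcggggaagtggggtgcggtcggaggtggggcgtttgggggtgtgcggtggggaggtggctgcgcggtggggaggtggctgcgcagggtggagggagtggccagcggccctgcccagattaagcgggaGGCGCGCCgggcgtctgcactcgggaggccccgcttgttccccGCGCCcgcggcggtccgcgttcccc
The COL4A2 window held GGCGC at 6 places, GGGCGG at 1 and CCAAT at 1. The COL4A3 window held GGCGC at 3 places, GGGCGG at 2 and CACCTG at 1, and the COL4A4 window held GGCGC at 6 places and CACCTG at 1. These 2 windows overlap. The CACCTG match and all 3 GGCGC matches of the COL4A3 window lie in the overlap, so the same bases are counted in both windows. Of 35116 RefSeq promoter windows of the same length, 48.6% held GGCGC, 45% GGGCGG, 34.6% CCAAT and 20.6% CACCTG. Windows were found for 8 of the 10 genes. None of the 8 held CAGACA, the CAGA box read by SMAD proteins (in 16.9% of all windows), or TGANTCA, the AP-1 site (in 7.71%), which says only that those letters are absent from these windows. The windows of COL13A1 and COL17A1, the transmembrane pair, each held TATAAA, the letters of a TATA box, at -236 in COL13A1 and -206 in COL17A1 counted from the start site; 11.5% of all windows held it.

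Depth was even: 24556848 to 24671296 fragments per library, with 19610514 to 19989652 on genes. The target was lower in both knockdown groups: LITATS1 averaged 3.33 ± 0.405 CPM (counts scaled to a common library size) in the shLITATS1-1 libraries, 3.02 ± 0.321 CPM in the shLITATS1-2 libraries and 15.1 ± 1.51 CPM in the shNT libraries (SD, n = 3 each), with log2 fold changes of -2.18 and -2.32 against shNT. The share of gene fragments on mitochondrial genes was 10.1 to 10.4% with shLITATS1-1, 7.78 to 8.23% with shLITATS1-2 and 12.03 to 12.4% with shNT. The 8 epithelial markers summed to 9151, 5408 and 5665 CPM in the shLITATS1-1, shLITATS1-2 and shNT libraries, mostly keratins such as KRT8. In every group 2 of the 8, CLDN7 and ESRP1, were under 1 CPM. The 10 fibroblast and stromal markers summed to 6.71, 2.98 and 3.57 CPM in the same order of groups, with 8, 10 and 9 of the 10 under 1 CPM. POSTN was at 0 in all 9 libraries and DCN at 0 in the shLITATS1-2 and shNT libraries. The 7 endothelial markers were each under 1 CPM in every group; TEK, at 0.666, 0.353 and 0.102 CPM in the same order, was called higher with both hairpins. The 7 immune markers summed to 2.79, 5.63 and 1.52 CPM, mostly CD14 at 2.49, 5.36 and 1.40 CPM, which was called higher with both hairpins (log2 fold changes of 0.83 and 1.93), while CD3E was at 0 in all 9 libraries. The part of these markers in the results was not tested.

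Levels of different genes were set side by side per length, as transcript levels scaled to a fixed total (TPM) over the exons of GENCODE 29. In shNT cells, the type IV chain COL4A2 (24.2 TPM), the type VI chain COL6A1 (23.2 TPM) and the fibrillar chain COL5A1 (22.7 TPM) were highest of the 10, and their ranges over 3 libraries overlapped. COL4A1 followed at 14.7 TPM, then COL12A1 at 5.96, COL1A1 at 3.84 and COL4A4 at 3.13 TPM. COL17A1 (1.15 TPM) and COL4A3 (1.11 TPM) overlapped, and COL13A1 was lowest at 0.190 TPM. The exons of all annotated transcripts add up to 14738 bases for COL4A1 and 19293 bases for COL4A2; over the longest transcript of each gene, 6616 and 6494 bases, COL4A2 stood alone at the top of the shNT order with 56.7 TPM and COL4A1 came next with 25.8 TPM.

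The order changed in the knockdown groups. With shLITATS1-1 the leading chains were COL4A2 at 61.7, COL5A1 at 61.0 and COL4A1 at 56.3 TPM, each overlapping its neighbour, followed by COL6A1 at 39.8 and COL1A1 at 13.7 TPM. With shLITATS1-2 the leading chains were COL5A1 at 50.02, COL6A1 at 47.97 and COL4A2 at 42.7 TPM, which did not overlap, followed by COL4A1 at 22.5 and COL1A1 at 18.8 TPM. COL13A1, last of the 10 with shLITATS1-1 (0.687 TPM) and with shNT, reached 2.73 TPM with shLITATS1-2, above COL4A3 (1.26 TPM) and overlapping COL17A1 and COL4A4. COL1A1 stood above COL12A1 in both knockdown groups and below it in shNT cells. Over the longest transcripts, COL4A2 led every group, at 141.9 TPM with shLITATS1-1, 96.8 TPM with shLITATS1-2 and 56.7 TPM with shNT. On that scale COL13A1 with shLITATS1-2 was at 3.84 TPM and overlapped COL12A1 (4.41 TPM). It then lay above COL17A1 (3.04 TPM) and COL4A4 (2.04 TPM) without overlap.

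Summed over the 10 chains, the level was 257 ± 6.39 TPM with shLITATS1-1, 197 ± 2.61 TPM with shLITATS1-2 and 100.3 ± 2.76 TPM with shNT (SD, n = 3 each). The same sum over all 44 chains was 849 ± 22.2, 737 ± 8.56 and 402 ± 9.65 TPM, so the 10 chains held 30.3%, 26.8% and 24.9% of it. COL5A2, which is not among the 10, was the most abundant chain, with 33.5% of the collagen sum with shLITATS1-1, 29.8% with shLITATS1-2 and 25.3% with shNT. TPM orders genes within a group; the comparisons between groups below use fragment counts scaled by the trimmed mean of M values (TMM) and given as CPM.

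**Figure D1:**
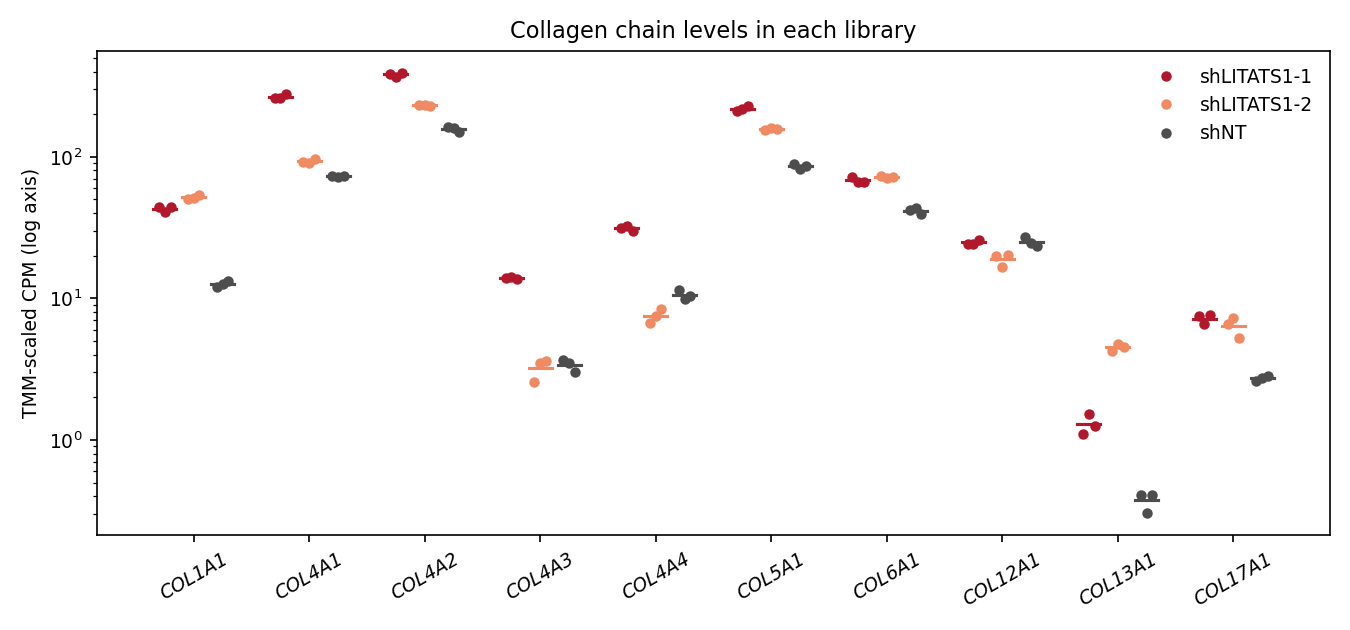
TMM-scaled CPM (log axis) of each of the 10 collagen chains in each library; points are libraries, colours are groups and bars are group means of 3. All shLITATS1-1 points lie above all shNT points except for COL12A1, while the shLITATS1-2 points of COL4A4 and COL12A1 lie below those of shNT.

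With shLITATS1-1, 9 of the 10 chains rose and none fell; with shLITATS1-2, 7 rose and 2 fell (COL4A4 and COL12A1). A chain is called where the quasi-likelihood test of edgeR gave an adjusted p under 0.05, by Benjamini-Hochberg over all 15500 genes tested. All 10 chains passed the filter on low counts. The count of 0 chains lower with shLITATS1-1 was also 0 at an unadjusted p under 0.05 and with DESeq2. COL12A1 was the chain not called with shLITATS1-1, and COL4A3 the chain not called with shLITATS1-2. Of all genes tested, 30.5% were called higher and 30.5% called lower with shLITATS1-1, and 27.8% higher and 28.9% lower with shLITATS1-2. A call alone is therefore common in these data, and the share of chains called higher is above that background with both hairpins. The chains were chosen with earlier results of these data known, so such a comparison with all genes is a description and not a test. At 2-fold or more, 8 of the 10 chains were higher with shLITATS1-1 (all that rose but COL6A1), against 6.14% of all genes. With shLITATS1-2, 3 of the 10 were (COL1A1, COL13A1 and COL17A1), against 3.78% of all genes. The median log2 fold change of the 10 was 1.48 with shLITATS1-1 and 0.67 with shLITATS1-2, beside -0.0070 and -0.0040 over all genes. Scaling by library size alone moved the whole distribution with shLITATS1-2, to 6054 genes higher and 2968 lower (67.1% of calls higher, against 48.96% with TMM) and a median over all genes of 0.11; the counts of the 10 chains called were the same.

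**Figure D2:**
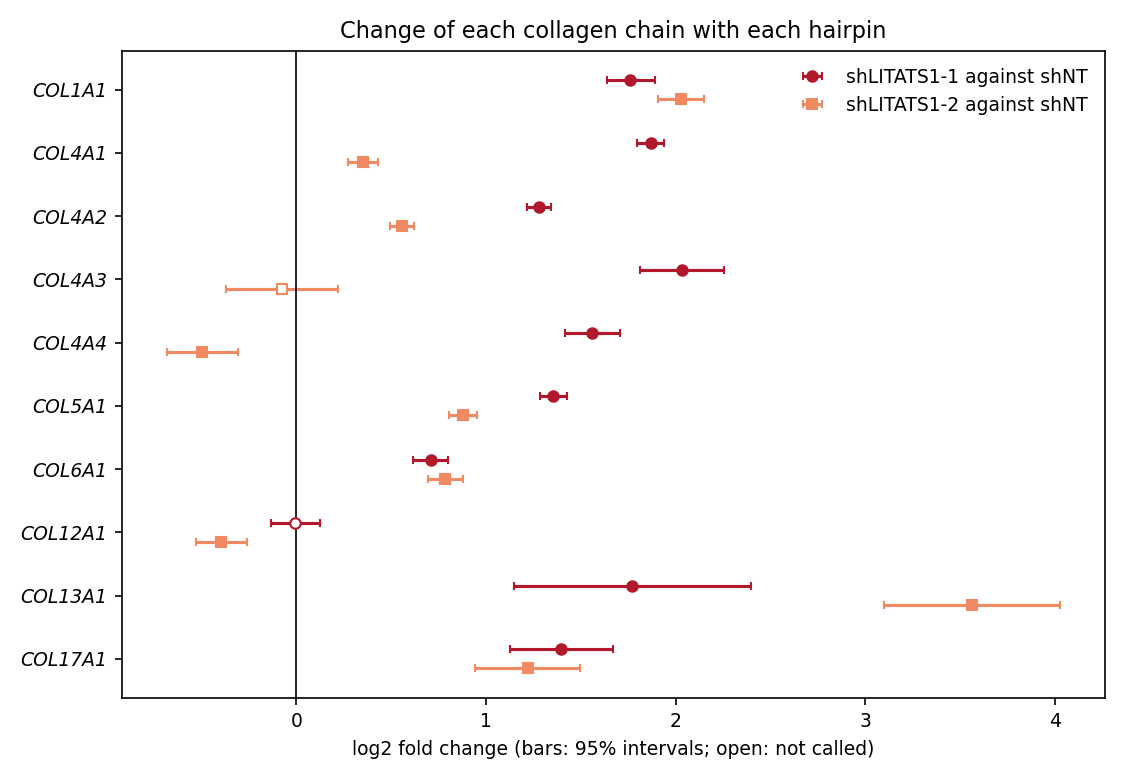
Log2 fold change of each chain with shLITATS1-1 (circles) and with shLITATS1-2 (squares), both against the same shNT libraries; bars are 95% intervals and open symbols were not called. The bars of COL6A1 and COL17A1 overlap between the hairpins, the 4 type IV chains lie further right with shLITATS1-1, and COL13A1 lies further right with shLITATS1-2.

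Set against each other, the hairpins also differed. With shLITATS1-1 over shLITATS1-2, 6 of the 10 chains were higher (COL4A1, COL4A2, COL4A3, COL4A4, COL5A1 and COL12A1) and 2 were lower (COL1A1 and COL13A1), where 30.2% of all genes were higher and 30.7% lower. At 2-fold or more, COL4A1, COL4A3 and COL4A4 were higher and COL13A1 was lower, 3 and 1 of the 10, against 5.27% and 3.05% of all genes. The median of the 10 was 0.43 on the log2 scale, and -0.015 over all genes. Scaling by library size alone gave 3293 genes higher and 6911 lower in this contrast, 32.3% of calls higher against 49.6%, with a median over all genes of -0.15, and COL6A1 was then also called lower.

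Among the type IV chains, COL4A1 (ENSG00000187498, chr13:110148963-110307233, minus strand) is the chief basement membrane chain. It stood at 259, 260.2 and 279 CPM in the shLITATS1-1 libraries, at 91.5, 90.5 and 97.2 CPM in the shLITATS1-2 libraries and at 72.6, 72.3 and 73.6 CPM in the shNT libraries. Every library of each knockdown group was above every shNT library, and the shLITATS1-1 libraries stood far above the rest. The log2 fold change was 1.87 ± 0.037 (SE; adjusted p = 1.24e-52) with shLITATS1-1 and 0.35 ± 0.040 (adjusted p = 4.11e-12) with shLITATS1-2, or 3.65-fold and 1.28-fold. The difference between the hairpins was 1.52 ± 0.035 (adjusted p = 4.34e-48).

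COL4A2 (ENSG00000134871, chr13:110305812-110513209, plus strand), its partner in the trimer, stood at 385, 367 and 392 CPM with shLITATS1-1, at 230.5, 234 and 229.6 CPM with shLITATS1-2 and at 161, 160.1 and 150.1 CPM with shNT. The groups were fully separated, in that order. It rose by 1.28 ± 0.033 on the log2 scale with shLITATS1-1 (adjusted p = 8.46e-46) and by 0.56 ± 0.033 with shLITATS1-2 (adjusted p = 1.99e-24). The hairpins differed by 0.72 ± 0.031 (adjusted p = 5.84e-32), less than the difference in COL4A1. Antisense genes COL4A2-AS1 and COL4A2-AS2 share 81 and 14 exon bases with COL4A2, 0.42% and 0.07% of its exons.

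Because the pair shifted unequally, the ratio of COL4A2 to COL4A1 differed between groups. Per length it was 1.10 ± 0.034 with shLITATS1-1, 1.90 ± 0.087 with shLITATS1-2 and 1.65 ± 0.080 with shNT (SD, n = 3 each), and no library of 1 group fell in the range of another. Over the longest transcripts the ratios were 1.46, 2.54 and 2.20. On the log2 scale the ratio with shLITATS1-1 differed from shNT by -0.59, the ratio with shLITATS1-2 by 0.21, and the difference between the hairpins was -0.79. Each exact two-sided permutation test over 3 against 3 libraries gave p = 0.1, the smallest it can give, and 0.12 after adjustment over 6 tests.

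COL4A3 (ENSG00000169031, chr2:227164565-227314792, plus strand) and COL4A4 (ENSG00000081052, chr2:227002711-227164453, minus strand) encode the chains of the alveolar and glomerular trimer. COL4A3 stood at 13.97, 14.2 and 13.6 CPM with shLITATS1-1, at 2.56, 3.51 and 3.601 CPM with shLITATS1-2 and at 3.68, 3.48 and 3.03 CPM with shNT. The shLITATS1-1 libraries were all above the others, and the shLITATS1-2 and shNT libraries overlapped. Its log2 fold change was 2.03 ± 0.11 (adjusted p = 4.7e-26) with shLITATS1-1 and -0.075 ± 0.15 (adjusted p = 0.694; 95% interval -0.37 to 0.22) with shLITATS1-2. That second value turned to 0.065 without the first shLITATS1-2 library and to 0.037 when scaled by library size alone. The antisense gene MFF-DT shares 120 exon bases with COL4A3, 1.32% of its exons.

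COL4A4 stood at 31.4, 32.5 and 29.8 CPM with shLITATS1-1, at 6.71, 7.45 and 8.35 CPM with shLITATS1-2 and at 11.5, 9.87 and 10.4 CPM with shNT. The groups did not overlap, and shLITATS1-2 was the lowest. It rose by 1.56 ± 0.074 with shLITATS1-1 (adjusted p = 8.36e-30) and fell by 0.50 ± 0.096 with shLITATS1-2 (adjusted p = 7.87e-06), both on the log2 scale. The hairpins differed by 2.06 ± 0.078 for COL4A4 (adjusted p = 2.51e-35) and by 2.11 ± 0.11 for COL4A3 (adjusted p = 5.74e-27). The ratio of COL4A4 to COL4A3 per length was 2.03 ± 0.045 with shLITATS1-1, 2.13 ± 0.23 with shLITATS1-2 and 2.83 ± 0.27 with shNT (SD, n = 3 each). Both knockdown groups lay below shNT with no overlap and overlapped each other. The exact permutation p was 0.1 (adjusted 0.12) for each hairpin against shNT and 0.6 for shLITATS1-1 against shLITATS1-2, where the log2 difference was -0.067 (0.014 without the first shLITATS1-2 library).

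**Figure D3:**
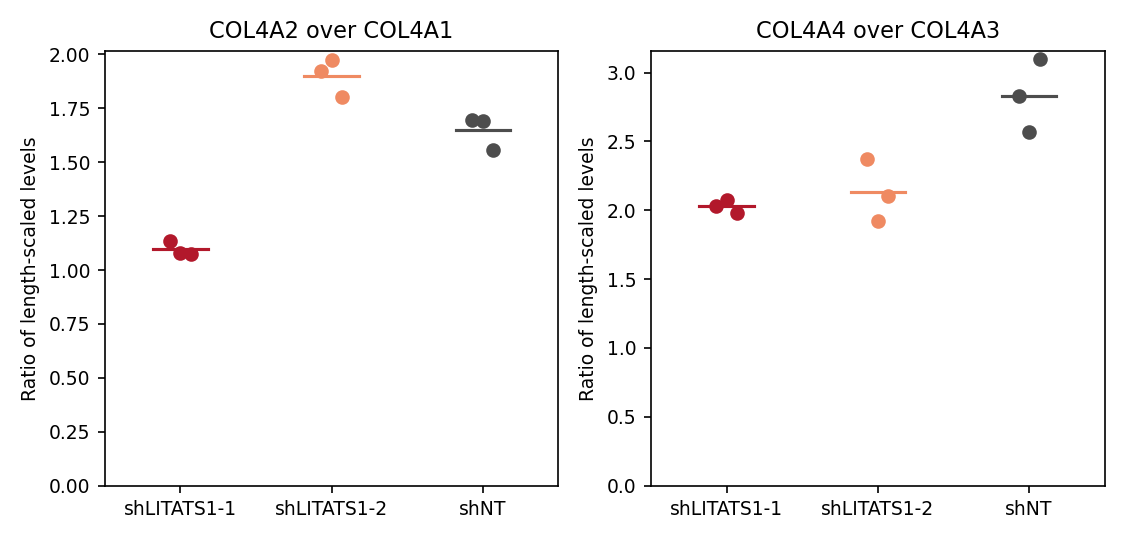
Ratio of COL4A2 to COL4A1 (left) and of COL4A4 to COL4A3 (right), per exon length, in each library; points are libraries and bars are group means of 3, with both axes starting at 0. The left ratio is lowest with shLITATS1-1, at 1.10, and the right ratio is highest with shNT, at 2.83.

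The other type IV pair, COL4A5 and COL4A6, outside the 10, rose with both hairpins: COL4A5 by 1.51 and 1.10 and COL4A6 by 1.18 and 0.86 on the log2 scale with shLITATS1-1 and shLITATS1-2. Summed over all 6 type IV chains the level was 221 ± 5.85 TPM with shLITATS1-1, 148 ± 3.34 TPM with shLITATS1-2 and 77.2 ± 0.617 TPM with shNT (SD, n = 3 each). TPM orders genes within a group, so these sums do not measure the size of a change between groups. COL4A1, for example, averaged 22.5 TPM with shLITATS1-2 and 14.7 TPM with shNT, but 93.05 and 72.8 CPM, a smaller step. COL4A5, the remaining chain of the alveolar trimer, thus rose with shLITATS1-2, where COL4A4 fell and COL4A3 was not called.

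Among the fibrillar chains, COL1A1 (ENSG00000108821, chr17:50183289-50201632, minus strand), the major chain of type I collagen, was one of the 3 that reached 2-fold with both hairpins. It stood at 44.1, 40.5 and 44.5 CPM with shLITATS1-1, at 50.7, 50.9 and 53.9 CPM with shLITATS1-2 and at 12.1, 12.6 and 13.3 CPM with shNT. The 3 groups did not overlap, and shLITATS1-2 was highest. The log2 fold change was 1.76 ± 0.064 (adjusted p = 2.53e-36) with shLITATS1-1 and 2.03 ± 0.062 (adjusted p = 7.63e-41) with shLITATS1-2, or 3.39-fold and 4.09-fold. The hairpins differed by -0.27 ± 0.050 (adjusted p = 3.91e-06). In bulk RNA a change in the number of cells that express a chain and a change in RNA per cell cannot be told apart.

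COL1A2, the other chain of type I collagen, had 0 or 1 fragment in each library, and 0 in all shNT libraries, so COL1A1 was measured here almost without its usual partner. COL3A1, another fibrillar chain of stroma, averaged 0.701 CPM with shLITATS1-1, 0.561 CPM with shLITATS1-2 and 0.171 CPM with shNT. At these low levels COL3A1 was called higher with both hairpins, with log2 fold changes of 2.00 and 1.68. COL1A2 and COL3A1 are both fibroblast markers. The summed fibroblast markers were highest with shLITATS1-1, mostly through LUM at 3.59 CPM, and lowest with shLITATS1-2. LUM was called higher with shLITATS1-1. THY1 stood at 1.12 CPM with shLITATS1-1, 0.93 CPM with shLITATS1-2 and 2.29 CPM with shNT. It was called lower with both hairpins, with log2 fold changes of -1.02 and -1.29. The sums thus mix markers that moved in opposite directions. The part of these markers in the COL1A1 values was not tested.

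COL5A1 (ENSG00000130635, chr9:134641774-134844843, plus strand), a chain of type V collagen that sets fibril diameter, stood at 209.7, 219 and 228 CPM with shLITATS1-1, at 154, 159 and 158 CPM with shLITATS1-2 and at 88.4, 81.7 and 86.1 CPM with shNT. The groups were separated in that order. It rose by 1.36 ± 0.036 with shLITATS1-1 (adjusted p = 2.31e-44) and by 0.88 ± 0.037 with shLITATS1-2 (adjusted p = 1.13e-32), and the hairpins differed by 0.48 ± 0.034 (adjusted p = 1.73e-20). Its partner COL5A2 rose by 1.41 and 0.85 with the same hairpins. Per length, COL5A2 exceeded COL5A1 by 4.67-fold with shLITATS1-1, 4.40-fold with shLITATS1-2 and 4.49-fold with shNT; the shLITATS1-2 and shNT libraries overlapped in this ratio.

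COL6A1 (ENSG00000142156, chr21:45981737-46005050, plus strand), a chain of the beaded filaments of type VI collagen, stood at 72.2, 66.0 and 66.4 CPM with shLITATS1-1, at 72.7, 71.1 and 72.0 CPM with shLITATS1-2 and at 42.4, 43.3 and 39.3 CPM with shNT. The knockdown groups overlapped each other and lay above shNT. It rose by 0.71 ± 0.047 with shLITATS1-1 (adjusted p = 5.26e-22) and by 0.79 ± 0.046 with shLITATS1-2 (adjusted p = 1.48e-24). The difference between the hairpins was not called, at -0.077 ± 0.043 (adjusted p = 0.12; 95% interval -0.16 to 0.0083), and it turned to 0.075 with a correction for GC content. It was called without the first shLITATS1-1 library, at -0.12 (adjusted p = 0.0352). COL6A2, its partner, rose by 0.94 and 0.998 on the log2 scale with the same hairpins, and COL6A3, the remaining chain of the common type VI trimer, had at most 8 fragments in any library.

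COL12A1 (ENSG00000111799, chr6:75084326-75206051, minus strand), a fibril-associated collagen that coats fibrils, was the only chain of the 10 that rose with neither hairpin. It stood at 24.4, 24.3 and 26.0 CPM with shLITATS1-1, at 19.9, 16.8 and 20.4 CPM with shLITATS1-2 and at 26.97, 24.5 and 23.5 CPM with shNT. The shLITATS1-1 and shNT libraries overlapped, and the shLITATS1-2 libraries were below both. The log2 fold change was -0.0055 ± 0.066 with shLITATS1-1 (adjusted p = 0.949; 95% interval -0.14 to 0.12) and -0.39 ± 0.068 with shLITATS1-2 (adjusted p = 8.88e-07). The hairpins differed by 0.39 ± 0.069 (adjusted p = 1.2e-06). The value with shLITATS1-1 turned above 0 without the first or the second shLITATS1-1 library or the first shNT library, at most to 0.057.

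The transmembrane chains rose with both hairpins. COL13A1 (ENSG00000197467, chr10:69801867-69964275, plus strand), a surface collagen of adhesion sites, was counted at 21, 29 and 24 fragments with shLITATS1-1, at 88, 99 and 94 with shLITATS1-2 and at 8, 6 and 8 with shNT. The groups did not overlap, but the shNT values rest on few fragments. Scaled, these were 1.30 ± 0.21 CPM with shLITATS1-1, 4.51 ± 0.26 CPM with shLITATS1-2 and 0.376 ± 0.060 CPM with shNT (SD, n = 3 each). The log2 fold change was 1.77 ± 0.32 with shLITATS1-1 (adjusted p = 1.68e-06; 95% interval 1.15 to 2.40) and 3.56 ± 0.24 with shLITATS1-2 (adjusted p = 6.38e-22; 95% interval 3.10 to 4.03). The hairpins differed by -1.79 ± 0.18 (adjusted p = 7.43e-14).

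COL17A1 (ENSG00000065618, chr10:104031286-104085957, minus strand), the hemidesmosome collagen that anchors basal epithelial cells, stood at 7.46, 6.58 and 7.58 CPM with shLITATS1-1, at 6.56, 7.26 and 5.28 CPM with shLITATS1-2 and at 2.61, 2.76 and 2.82 CPM with shNT. Both knockdown groups lay above shNT and overlapped each other. It rose by 1.40 ± 0.14 with shLITATS1-1 (adjusted p = 3.59e-14) and by 1.22 ± 0.14 with shLITATS1-2 (adjusted p = 9.26e-12). The difference of 0.18 ± 0.11 between the hairpins was not called (adjusted p = 0.176; 95% interval -0.047 to 0.40), but it passed with a correction for GC content, at 0.25 (adjusted p = 0.048). Among the matrix partners of hemidesmosomes, LAMB3, a laminin chain, averaged 85.8 CPM with shLITATS1-1, 55.3 CPM with shLITATS1-2 and 31.97 CPM with shNT, and the integrin chain ITGB4 averaged 411 CPM with shLITATS1-1, 420 CPM with shLITATS1-2 and 174 CPM with shNT.

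By the distance between library profiles of log2 CPM, centred on each gene's mean over 9 libraries and searched over 12311 genes, the nearest genes to COL1A1 were ITGA5 (distance 0.227), NT5E (0.308) and PTPRN (0.358). For COL4A1 they were MYPN (0.235), B4GALT1 (0.264) and P4HA3 (0.268), for COL4A3 UGT1A1 (0.426), BAAT (0.491) and SERPINB7 (0.522), and for COL17A1 TUFT1 (0.325), ZNF185 (0.339) and BMP1 (0.346). The nearest to COL13A1 were further off, SEMA7A at 1.23, SCG5 at 1.24 and SH3TC2 at 1.36.

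Of the 34 other collagen chains, 17 passed the filter. With shLITATS1-1, 13 of the 17 rose and 2 fell (COL16A1 and COL18A1); with shLITATS1-2, 10 rose and 4 fell (COL11A1, COL11A2, COL26A1 and COL27A1). Their median log2 fold change was 0.94 and 0.62, beside 1.48 and 0.67 for the 10. The 2 falls with shLITATS1-1 were small, -0.22 for COL16A1 and -0.12 for COL18A1. The call on COL16A1 was lost without any 1 of the shLITATS1-1 libraries or without the first or second shNT library (-0.24 to -0.18), and also with DESeq2, without the low-count filter, with only the 6 libraries compared, at an adjusted p under 0.01 and with a correction for GC content (-0.12). The call on COL18A1 was lost without the second shLITATS1-1 library (-0.084) or the second shNT library (-0.082), and GC correction turned the value to 0.026, not called. With shLITATS1-2, the fall of COL26A1 (-1.07) was lost without the first or second shLITATS1-2 library or the second or the third shNT library (-1.04 to -0.94), with DESeq2 (-1.09) and at an adjusted p under 0.01, and that of COL11A2 (-0.78) without the third shLITATS1-2 library (-0.55) or the third shNT library (-0.63), by library size alone, without the low-count filter, with DESeq2 and at an adjusted p under 0.01. COL7A1, the anchoring fibril chain, was abundant, with 17.8% of the collagen sum in shNT cells, and rose by 0.44 with shLITATS1-1 and 0.43 with shLITATS1-2. COL18A1, a basement membrane collagen, held 6.64% of the collagen sum with shLITATS1-1, 9.30% with shLITATS1-2 and 14.5% with shNT. COL21A1, a fibril-associated chain like COL12A1, was not called with shLITATS1-1 (-0.29) and rose by 1.01 with shLITATS1-2.

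**Figure D4:**
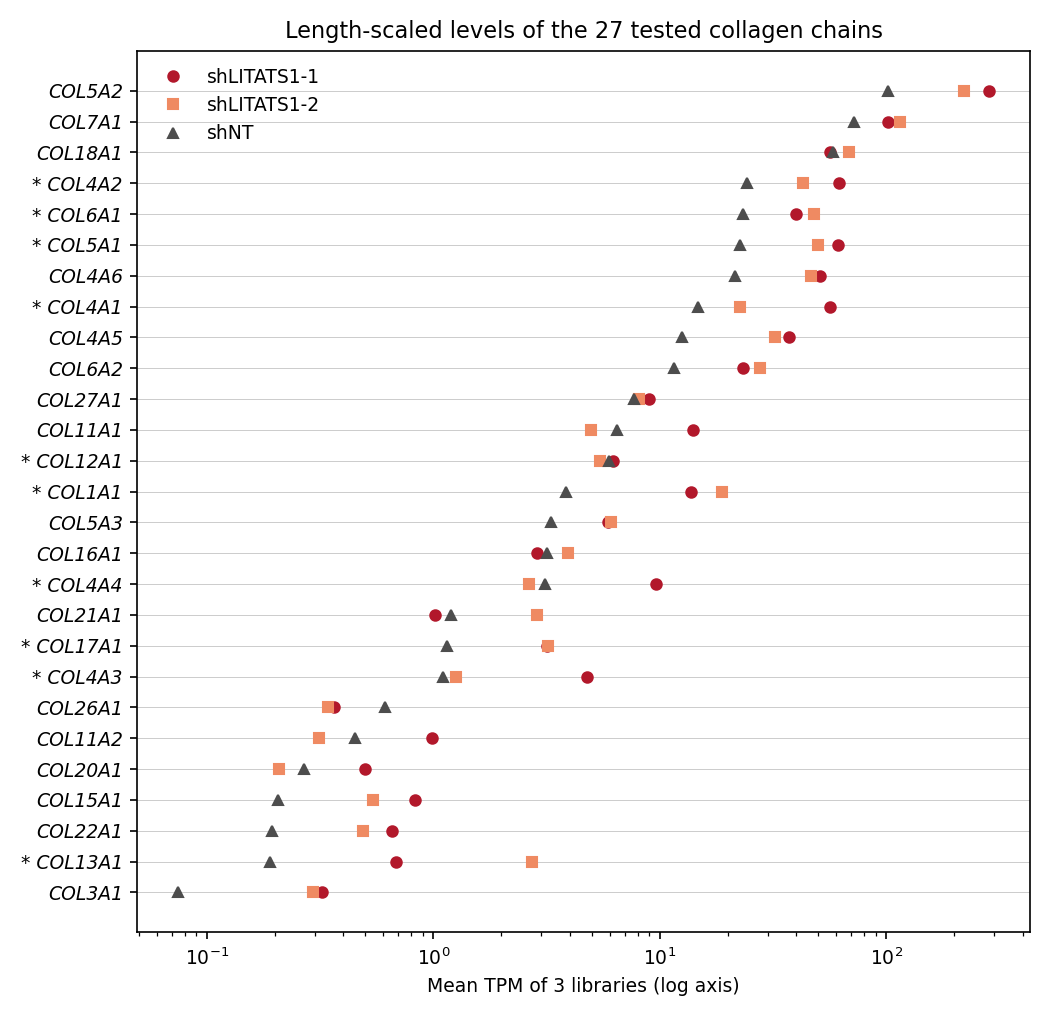
Mean TPM (log axis) of the 27 collagen chains that passed the filter, in shLITATS1-1 (circles), shLITATS1-2 (squares) and shNT (triangles) libraries, 3 per group; stars mark the 10 chains described here. COL5A2 and COL7A1 lead in every group, and TPM orders the chains within a group.

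Of all genes tested, 30.5% were called higher and 30.5% lower with shLITATS1-1, and 27.8% higher and 28.9% lower with shLITATS1-2. The counts of the gene lists that follow are to be read beside these shares. The lists, too, were chosen with earlier results of these data known. Of 20 tested folding and hydroxylation genes, 17 rose and 2 fell with shLITATS1-1 and 12 rose and 4 fell with shLITATS1-2, with medians of 0.27 and 0.20 on the log2 scale beside -0.0070 and -0.0040 over all genes. P4HA3, a prolyl hydroxylase subunit, rose by 1.68 ± 0.047 with shLITATS1-1 and was at 37.7 CPM with shLITATS1-2, against 32.6 CPM with shNT. PLOD2, a lysyl hydroxylase, rose by 0.84 with shLITATS1-1. SERPINH1, the collagen chaperone, rose by 0.89 with shLITATS1-2, while the prolyl hydroxylase subunit P4HA1 fell by 0.79 and the isomerase FKBP14 fell by 0.96 there. The count of 2 falls with shLITATS1-1 became 1 without any single shLITATS1-1 library or the first shNT library, and 0 without the second shNT library. It was also 1 with DESeq2, DESeq2 size factors, no low-count filter, a filter of 50 counts, the replicate block, only the 6 libraries compared, either correction (GC content or gene length) and an adjusted p under 0.01.

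Of 16 tested genes for procollagen processing and crosslinking, 9 rose and 2 fell with shLITATS1-1 and 7 rose and 5 fell with shLITATS1-2, with medians of 0.50 and 0.056. The 5 falls are near the share of all genes called lower, and by library size alone they were 3. BMP1, which trims the C-propeptide of fibrillar procollagens, rose by 1.23 with shLITATS1-1 and 1.13 with shLITATS1-2, and FURIN, which sheds COL13A1 and activates other proteases, by 1.41 and 1.03. TGM2, a crosslinking transglutaminase, rose by 1.31 with shLITATS1-1, and differed between the hairpins by 1.57. PXDN, the peroxidase that makes the sulfilimine crosslink of type IV collagen, was at 11.7 CPM with shLITATS1-1, 30.8 CPM with shLITATS1-2 and 22.5 CPM with shNT, and differed between the hairpins by -1.40.

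Of 14 collagen export genes, 7 rose and 3 fell with shLITATS1-1, and 5 rose and 2 fell with shLITATS1-2, with medians of 0.10 and 0.037. With scaling by library size alone the shLITATS1-2 counts became 9 and 1, and 3 genes rose without the first shLITATS1-2 library or the third shNT library, with DESeq2, without the low-count filter and at an adjusted p under 0.01. CREB3L1, a transcription factor of secretory cells, rose by 1.35 with shLITATS1-2, and CREB3L2, of the same family, rose by 0.77 with shLITATS1-1.

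Of 9 tested collagen receptors, 8 rose and none fell with shLITATS1-1 and 7 rose and none fell with shLITATS1-2, with medians of 0.78 and 0.62. The count of 0 receptors lower was also 0 at an unadjusted p under 0.05 with edgeR and with DESeq2. ITGA11, an integrin chain that binds fibrillar collagen, rose by 2.35 with shLITATS1-1 and 1.76 with shLITATS1-2, and ITGA2 by 1.22 and 0.71. Of 21 tested matrix partners, 17 rose and 2 fell with shLITATS1-1 and 14 rose and 5 fell with shLITATS1-2, with medians of 0.64 and 0.25. Fibronectin, FN1, rose by 1.40 with shLITATS1-1, and averaged 554 CPM with shLITATS1-2 against 471 CPM with shNT. SPARC, a collagen-binding glycoprotein, stood at 35.0 CPM with shLITATS1-1, 3.67 CPM with shLITATS1-2 and 13.3 CPM with shNT, a difference of 3.25 between the hairpins on the log2 scale. The adhesion-modulating glycoprotein TNC stood at 4.93 CPM with shLITATS1-1, 34.4 CPM with shLITATS1-2 and 4.03 CPM with shNT.

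Of 15 tested collagen-degrading enzymes and their inhibitors, 11 rose and 1 fell with each hairpin (2 fell with shLITATS1-2 without its first library or the second shNT library), with medians of 0.85 with shLITATS1-1 and 0.87 with shLITATS1-2. MMP2, a gelatinase that also cleaves type IV collagen, rose by 1.55 with shLITATS1-1 and 1.92 with shLITATS1-2. TIMP3, an inhibitor of such enzymes, rose by 3.11 with shLITATS1-1 and 2.26 with shLITATS1-2, to 3.73 CPM with shLITATS1-1 and 2.07 CPM with shLITATS1-2, against 0.427 CPM with shNT.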

How the data were processed

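The submitters' processing notes name FastQC, cutadapt 2.10, STAR 2.7.5a, HTSeq 0.12.4 and the GRCh38 build; strandedness and gene annotation of the counting step were not given in the sources used here. What was deposited is a table of counts: whole-number fragments per Ensembl gene, made by the authors for each library, not normalized. Counter lines that name no gene held 18.97 to 20.26% of fragments and were left out. LITATS1 is the gene ENSG00000233621.

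Counts of 9 libraries in 3 groups were fitted in 1 edgeR 4.0.16 quasi-likelihood model in R 4.3.3, with TMM scaling, filterByExpr at a minimum count of 10 (15500 genes), two-sided tests and Benjamini-Hochberg adjustment, called at 0.05. Replicates differed beyond sampling noise (chi-square per degree of freedom 1.474 to 2.721), but little. The coefficient of variation between replicates that edgeR fitted in common to all genes was 2.712%. The adjusted p-values rest on this spread between the libraries of a group. Replicate numbers did not pair samples and were used as names only. TPM used exon lengths of GENCODE 29, matched to 96.42% of gene IDs and 99.979% of fragments. Alternatives were DESeq2 1.42.0, other scalings, filters, corrections, a replicate block and each library left out. The fit was also run on simulated counts, with the same spread for every gene and few genes changed. That setting differs from these data, so no conclusion on these contrasts is drawn from it. Without a strand setting, reads of a gene and its antisense partner cannot be told apart.

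The 10 chains and every gene list were chosen with earlier results of these data known. By rule the text names LITATS1, the 10 chains, other chains past the filter, up to 5 called genes per list and comparison with the largest change, and, for 5 chains, the 3 nearest profiles. COL1A2 and COL6A3, untested partner chains, and markers at or near 0 were named outside it, after their values were seen. Protein sequences were not used here.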

Additional observations from a re-analysis of the deposited data

Results flagged for a closer look

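COL4A4, COL11A1, COL11A2 and COL27A1 rose with shLITATS1-1 and fell with shLITATS1-2, each against shNT, and also differed between the hairpins in the direct test of shLITATS1-1 over shLITATS1-2 by edgeR. COL4A4, a type IV chain, had log2 fold changes of 1.56 with shLITATS1-1 and -0.50 with shLITATS1-2, and the direct difference was 2.06 (adjusted p = 2.51e-35).

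COL11A1, a fibrillar chain, had 1.05 and -0.64 with the same hairpins and a direct difference of 1.69 (adjusted p = 6.94e-29). Its partner COL11A2 had 1.05 and -0.78 with a direct difference of 1.83 (adjusted p = 9.95e-09), at 2.12 CPM with shLITATS1-1, 0.594 CPM with shLITATS1-2 and 1.02 CPM with shNT. The fall of COL11A2 was no longer called when scaled by library size alone (-0.67), with DESeq2 (-0.79), without the low-count filter (-0.78), without the third shLITATS1-2 library (-0.55) or without the third shNT library (-0.63), or at an adjusted p under 0.01.

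COL27A1, another fibrillar chain, had 0.14 and -0.19 with a direct difference of 0.34 (adjusted p = 1.45e-07). Its fall with shLITATS1-2 was not called when scaled by library size alone (-0.080), and its rise with shLITATS1-1 was not called with DESeq2 (0.15), with a correction for gene length (0.069) or without the second (0.12) or the third (0.12) shNT library, or at an adjusted p under 0.01.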

How the results depend on the processing

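The counts of the 10 chains called and of all genes called stayed within 1.5 times of the values reported under every alternative run. Replicate numbers gave no pairing (correlations of same-numbered deviations -0.3 to 0.168); with the replicate block 9 chains rose and 0 fell with shLITATS1-1 and 7 rose and 2 fell with shLITATS1-2, with 9295 and 8630 genes called, and 9264 between the hairpins. Leaving out 1 library at a time, the log2 difference in the ratio of COL4A4 to COL4A3 between the hairpins ran from -0.139 to 0.014, the last without the first shLITATS1-2 library.

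Values near 0 changed sign, most of them uncalled before and after; the cause was not tested. COL12A1 with shLITATS1-1 was 0.0011 with DESeq2 size factors, 0.0054 with a filter of 50 counts, and ran from -0.051 to 0.057 with 1 library left out. COL4A3 with shLITATS1-2 was 0.037 by library size alone and ran from -0.16 to 0.065 with 1 library left out. COL18A1 was 0.026 with shLITATS1-1 under GC correction (call lost), 0.085 with shLITATS1-2 by library size alone (called higher, adjusted p = 0.0327 in edgeR) and ran from -0.059 to 0.0061 with 1 left out. Between the hairpins, GC correction gave COL6A1 0.075 (not called), COL6A2 0.11 (call gained, adjusted p = 0.0343) and COL18A1 0.089, which turned from called lower to called higher (adjusted p = 0.00995); COL7A1 was -0.12 by library size alone (called lower, adjusted p = 0.000631) and -0.030 with length correction; with 1 library left out COL3A1 ran from -0.020 to 0.488 and COL26A1 from -0.072 to 0.704. COL6A1 was called lower between the hairpins by library size alone (-0.21) and without the first shLITATS1-1 library (-0.12).

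Of the values under alternatives, 2841 for single genes kept direction and side of the threshold, 71 lost the call and 10 gained it with the same sign. Of those that changed sign, 12 were not called before or after, 3 gained a call, 1 lost it and 1 was called both ways. Of the counts over gene lists, 539 were unchanged, 180 changed by at most 1.5 times and 49 by more; among these, other chains lower with shLITATS1-2 became 2 with DESeq2, a filter of 50 counts, library size alone or an adjusted p under 0.01, and collagen-degrading genes higher with shLITATS1-2 became 7 with a filter of 50 counts. Depth limits COL13A1, with 6 to 8 fragments in shNT libraries, and 17 chains were too low to test. With 3 libraries a group, no permutation test of a ratio can go below 0.1.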

Other observations

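Of 24 tested regulators of collagen genes, 14 rose and 5 fell with shLITATS1-1 and 13 rose and 6 fell with shLITATS1-2, with medians of 0.21 and 0.18 on the log2 scale. Of all genes, 30.5% were called higher and 30.5% lower with shLITATS1-1, and 27.8% higher and 28.9% lower with shLITATS1-2. CCN2, a matricellular target of TGF-beta and YAP signalling, rose by 1.46 with shLITATS1-1 and 1.01 with shLITATS1-2, and JUNB, an AP-1 subunit, by 1.23 and 0.93. MYBL2, a cell-cycle transcription factor, fell by 0.93 and 0.74 with the same hairpins. TEAD1, the DNA-binding partner of YAP, stood at 279 CPM with shLITATS1-1, 131 CPM with shLITATS1-2 and 264 CPM with shNT, and fell by 1.01 with shLITATS1-2. FOSL1, another AP-1 subunit, stood at 33.2 CPM with shLITATS1-1, 63.5 CPM with shLITATS1-2 and 63.8 CPM with shNT, and fell by 0.94 with shLITATS1-1.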
